A study of Homo sapiens with 6 samples.

Results

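Human cells hold mobile elements in check with chromatin marks, DNA methylation and factors that attack the elements' RNA or DNA copies. The genes described here are 36 members of those systems, chosen by symbol from the 27961 genes in the count tables, and 34 of them had enough counts to be tested. They comprised 9 genes for heterochromatin writers and readers, 3 for the HUSH complex and its partner, 2 for histone H3.3 deposition, 2 for other chromatin silencers, 5 for DNA methylation, 3 for DNA demethylation, 4 APOBEC3 deaminases, 4 other restriction factors acting on RNA or virus, and 4 for clearance of nucleic acids. The cells were SH-SY5Y, a human neuroblastoma line with noradrenergic features, in which lentiviral hairpins had been introduced. The TARDBP group (2 libraries) carried hairpin TRCN0000016038 against TARDBP, the gene of the RNA-binding protein TDP-43. Control hairpin 1 (SHC007, 2 libraries) and control hairpin 2 (SHC016, 2 libraries) were the references. All 3 groups were infected in 8 µg/mL polybrene, and 48 hours later puromycin at 2 µg/mL was applied for 3 days to keep cells carrying a hairpin. The knockdown therefore rested on 1 hairpin in a selected cell population, and nothing in the labels tells whether a hairpin's libraries came from separate cultures. The p-values below take their error from the 2 libraries of each hairpin, a spread that may be technical only. The question, from the title of the series, concerns retrotransposon activation.

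Histone H3 methylated on lysine 9 is the mark of this form of heterochromatin. TRIM28 (KAP1), brought to DNA by zinc finger proteins, recruits SETDB1, which writes the mark, and HP1 proteins bind it. UHRF1 brings DNMT1 to newly replicated DNA so that methylation is copied at each division, while DNMT3A and DNMT3B add methylation to new sites. APOBEC3 enzymes, MOV10, ZAP and SAMHD1 act later, on the RNA or on the copying of an element.

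Libraries held 18605745 to 21698339 counts, and 20.6% to 25.7% of them lay on repeat families. TARDBP stood at 18.9 and 24.0 CPM (a gene's counts relative to the size of its library, scaled by the trimmed mean of M-values) with its hairpin, 80.9 and 72.4 CPM with control hairpin 1, and 92.7 and 81.5 CPM with control hairpin 2. Both knockdown libraries lay below all 4 controls, and the log2 fold change against the mean of both control hairpins was -1.93 (SE 0.126, adjusted p = 1.68e-05, edgeR quasi-likelihood test). Of 11 noradrenergic neuroblastoma markers, 10 were tested; TH, which encodes the first enzyme of catecholamine synthesis, had 0 to 3 counts a library. Their summed level was 1304 and 1159 CPM with the TARDBP hairpin, 2341 and 2583 CPM with control hairpin 1, and 1736 and 1890 CPM with control hairpin 2.

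Among the 34 tested members, 4 of the 5 DNA methylation genes and TET3 fell against the mean of both control hairpins. APOBEC3C and APOBEC3F rose in that comparison. Of these genes, DNMT1 and APOBEC3F were not called against control hairpin 1. A gene was called where its adjusted p over all 17163 genes and repeat families tested was below 0.05; "rose" and "fell" are used only of such calls. Against the mean of both control hairpins, 5 members rose and 10 fell. These 15 members were 44.1% of those tested, beside 48.2% of all features (23.9% higher and 24.3% lower). The 5 that rose were CBX5, APOBEC3C, APOBEC3F, MOV10 and ZC3HAV1. The 10 that fell were TRIM28, DNMT1, DNMT3A, DNMT3B, UHRF1, SUV39H1, EHMT1, KDM1A, TET3 and SAMHD1. Only UHRF1, DNMT3B and TET3 were called with a change of 2-fold or more in this comparison. The median log2 fold change was -0.05 over the members and 0.04 over all features. With upper-quartile scaling, which moves the median feature by 0.123 in log2, the split was 8 higher and 7 lower. Without TARDBP hairpin replicate 2, 3 members were higher and 6 lower, and without TARDBP hairpin replicate 1, 3 were higher. With the 4 control libraries pooled as 1 group, whose spread then holds the difference between the hairpins, the calls were APOBEC3C higher and DNMT3A, DNMT3B, UHRF1, EHMT1 and TET3 lower.

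The 2 control hairpins gave different answers for many of these genes. Against control hairpin 1, 8 members rose and 7 fell (44.1%, beside 42.9% of all features, 21.1% higher and 21.8% lower). Against control hairpin 2, 4 rose and 14 fell (52.9%, beside 50.2%, 24.0% higher and 26.2% lower). The comparisons share the knockdown libraries. Upper-quartile scaling gave 10 higher and 5 lower against control hairpin 1, and 6 higher and 11 lower against control hairpin 2. Without control hairpin 2 replicate 2, only 2 members were higher than control hairpin 2. Between the controls themselves, 15 members were higher and 5 lower with control hairpin 2 (58.8%, beside 43.2%, 22.8% higher and 20.4% lower). The 5 lower were SETDB1, MORC2, ATRX, TET3 and MOV10, and 3 were lower without control hairpin 1 replicate 1. The members' median log2 difference between the controls was 0.27, beside -0.01 over all features.

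Of the 34 tested members, 6 were called in 1 direction against each control. DNMT3A, DNMT3B, UHRF1, EHMT1 and TET3 were lower than each (14.7% of those tested, beside 14.0% of all features), and APOBEC3C was higher than each (2.94%, beside 10.6%). CBX1, CBX3 and HELLS were called in opposite directions against the 2 controls (8.82%, beside 2.96%). This last count rested on single libraries: it was 1 (CBX1) without either knockdown library, 5 without control hairpin 1 replicate 2 (SETDB1, CBX1, CBX5, HELLS and RNASEH2A) and 2 (CBX1 and CBX3) without control hairpin 2 replicate 2. It was 2 with upper-quartile scaling (CBX1 and RNASEH2A). In all, 26 of the 34 were called in at least 1 of the 4 comparisons (76.5%, beside 71.3%). Against the 2 controls, 15 were called against 1 control and 10 against neither. For 9 members both knockdown libraries lay between those of the 2 controls (26.5%, beside 11.9%): SETDB1, CBX1, CBX3, CBX5, HELLS, DAXX, SUV39H2, RNASEH2A and RNASEH2C.

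**Figure D1:**
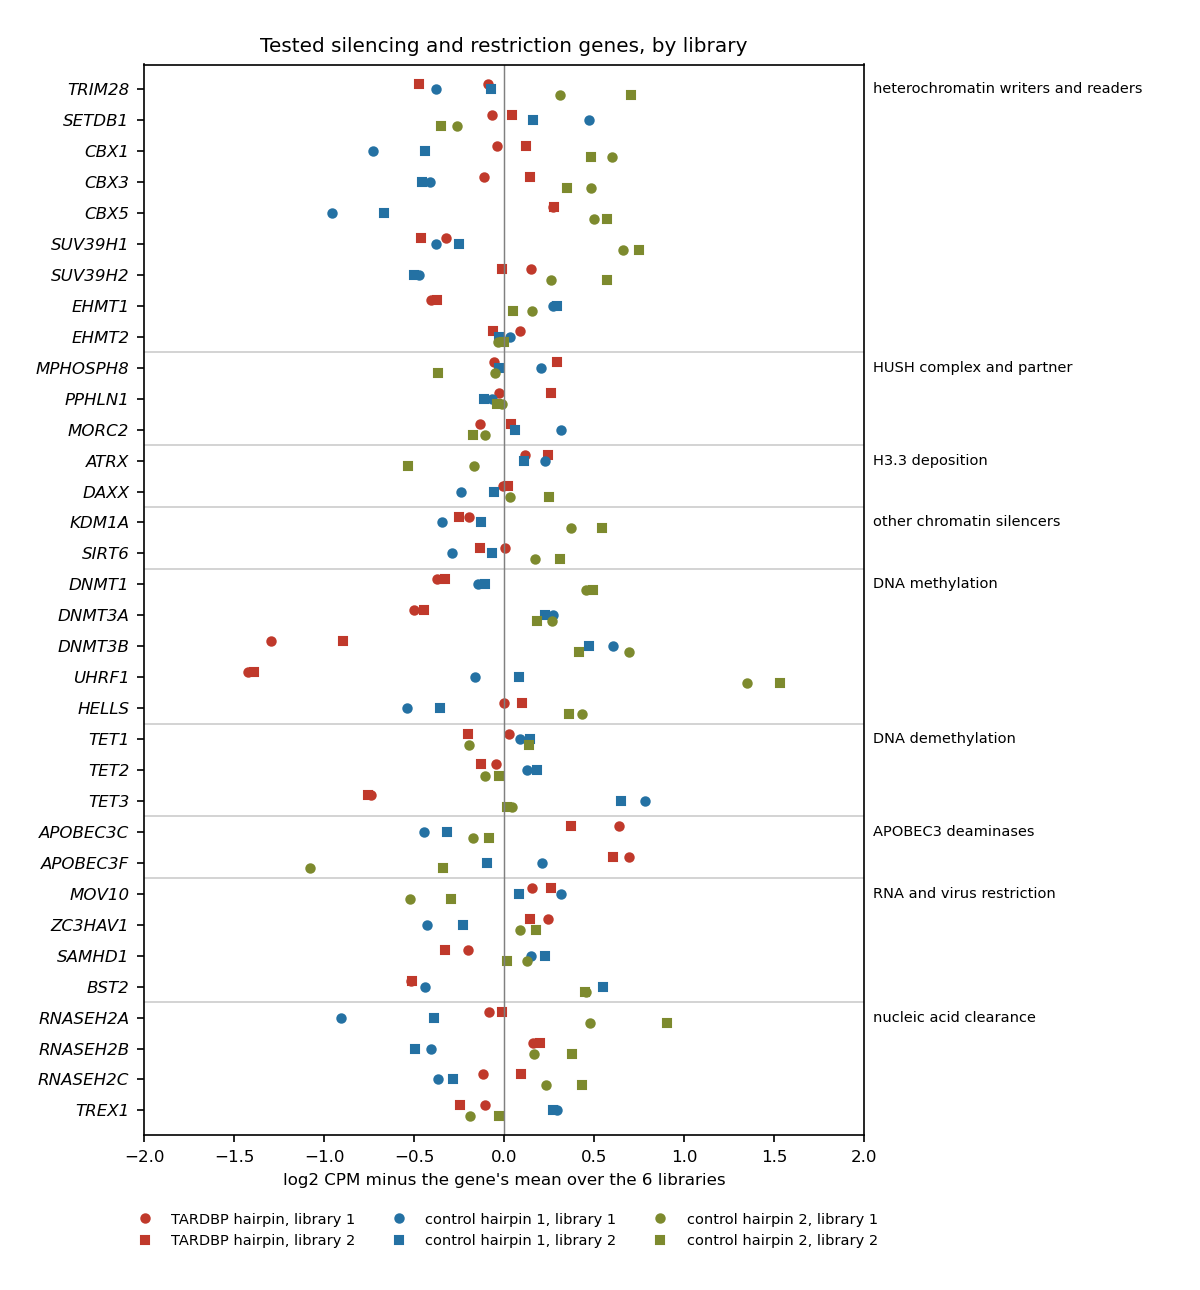
Level of each tested member in each library (horizontal axis, log2 CPM minus the gene's mean over the 6 libraries; genes by row, grouped by role; colours are hairpins, shapes are libraries; no error bars). UHRF1, DNMT3B and TET3 have both knockdown libraries far below the controls, while HP1 genes and HELLS have them between the 2 controls.

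**Figure D2:**
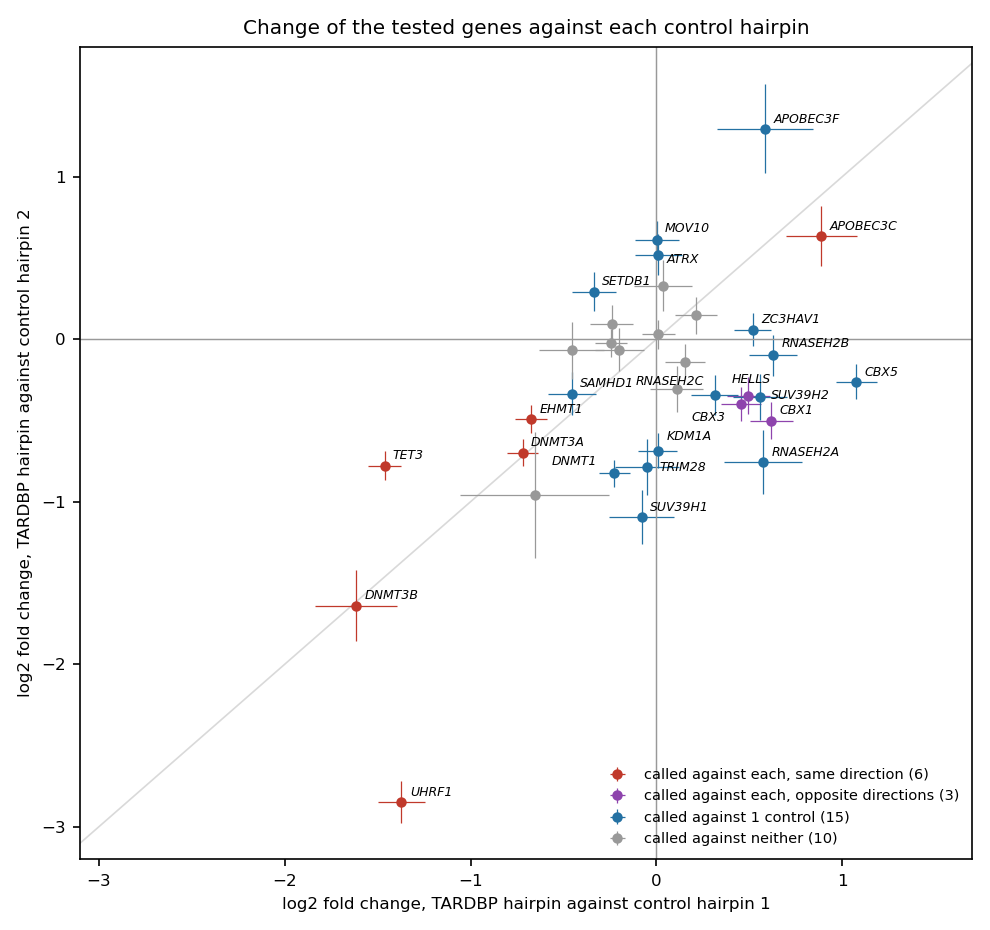
Log2 fold change with the TARDBP hairpin against control hairpin 1 (horizontal) and control hairpin 2 (vertical) for the 34 tested members; bars are 1 SE and the diagonal marks equal change. Both axes share the knockdown libraries; 6 members were called in 1 direction against each control, 3 in opposite directions, 15 against 1 control and 10 against neither.

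Of the 5 DNA methylation genes, 4 fell against the mean of both controls, beside 24.3% of all features lower, and the median log2 fold change of the 5 was -0.71. Against control hairpin 1, 3 fell (DNMT3A, DNMT3B and UHRF1), HELLS rose and DNMT1 was not called, and against control hairpin 2 all 5 fell. UHRF1 stood at 11.6 and 11.8 CPM with the TARDBP hairpin, 27.7 and 32.9 CPM with control hairpin 1, and 79.1 and 89.6 CPM with control hairpin 2. The 3 groups did not overlap, with the knockdown lowest and control hairpin 2 highest. UHRF1 fell 4.32-fold against the mean of both controls (log2 fold change -2.11, SE 0.117, adjusted p = 9.33e-06, edgeR). The fall was 2.59-fold against control hairpin 1 (adjusted p = 9.04e-05) and 7.20-fold against control hairpin 2 (adjusted p = 4.68e-06), and the controls differed 2.78-fold from each other (adjusted p = 7.39e-05). The size of the change in UHRF1 thus depended on the control, while its direction did not.

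DNMT3B, an enzyme of de novo methylation, had 32 and 42 counts in the knockdown libraries, 121 and 115 counts with control hairpin 1, and 125 and 115 counts with control hairpin 2. As CPM these were 1.66 and 2.18, then 6.17 and 5.63, then 6.58 and 5.42. The knockdown libraries lay below all controls, and the controls overlapped each other. DNMT3B fell 3.09-fold against the mean of both (log2 fold change -1.63, SE 0.198, adjusted p = 3.19e-04, edgeR), with -1.62 and -1.64 against control hairpins 1 and 2. Its partner in de novo methylation, DNMT3A, stood at 67.8 and 70.4 CPM with the TARDBP hairpin, 116 and 112 CPM with control hairpin 1, and 115 and 109 CPM with control hairpin 2. The controls again overlapped and the knockdown lay below both. DNMT3A fell 1.63-fold (log2 fold change -0.71, SE 0.0755, adjusted p = 1.62e-04), with -0.72 and -0.70 against control hairpins 1 and 2.

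The maintenance enzyme DNMT1 stood at 71.2 and 73.5 CPM with the TARDBP hairpin, 83.5 and 85.7 CPM with control hairpin 1, and 127 and 129.8 CPM with control hairpin 2. The groups did not overlap, but the knockdown lay close to control hairpin 1. DNMT1 fell against the mean of both controls (log2 fold change -0.53, SE 0.0728, adjusted p = 6.13e-04, edgeR) and against control hairpin 2 (-0.83, adjusted p = 1.21e-04). Against control hairpin 1 the difference was -0.23 (adjusted p = 0.0555), which passed with relative log expression scaling (adjusted p = 0.0434). HELLS, a chromatin remodeller needed for DNA methylation at repeats, stood at 24.8 and 26.6 CPM with the TARDBP hairpin, 17.1 and 19.4 CPM with control hairpin 1, and 33.6 and 31.9 CPM with control hairpin 2. The knockdown lay between the controls, higher than control hairpin 1 (log2 fold change 0.49, adjusted p = 0.00894) and lower than control hairpin 2 (-0.35, adjusted p = 0.0316). The HELLS call against control hairpin 1 was lost without TARDBP hairpin replicate 2 or control hairpin 1 replicate 1 (adjusted p 0.0521 to 0.0691). The call against control hairpin 2 was lost without either knockdown library or either control hairpin 2 library (0.0590 to 0.134), and with upper-quartile scaling (0.164) or genes alone (0.0514).

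Promoter sequences are printed for the DNA methylation genes except DNMT3A, and for CBX3, the only HP1 gene found to hold a word of the E2F type. Such words mark many cell cycle genes. RefSeq windows (build GRCh38.p14) running from 250 bases before to 50 bases after a start were found for 29 of the 36 members, 49 windows in all. The words TTTCCCGC, TTTCGCGC, TTTGCCGC and TTTGGCGC were searched on both strands, and overlapping matches counted once for a window. They occurred in 3.31% of all 35116 windows and in 6 of the 49 member windows (12.2%), belonging to UHRF1, DNMT1, HELLS, CBX3 and SIRT6. No window of DNMT3A, CBX1, CBX5, SUV39H1, SUV39H2 or RNASEH2A held one. Most of the printed genes thus hold a match, while only 5 of the 29 members with a window do. Each stretch below runs 5′ to 3′ on the gene's own strand, from 120 bases before the start to 30 bases of the transcript, with the match on either strand in capitals. The positions are chr19:4909381-4909530 (plus strand) for UHRF1, chr19:10194924-10195073 (minus strand) for DNMT1, chr10:94545668-94545817 (plus strand) for HELLS, chr7:26201323-26201472 (plus strand) for CBX3 and chr20:32779732-32779881 (plus strand) for DNMT3B.
UHRF1: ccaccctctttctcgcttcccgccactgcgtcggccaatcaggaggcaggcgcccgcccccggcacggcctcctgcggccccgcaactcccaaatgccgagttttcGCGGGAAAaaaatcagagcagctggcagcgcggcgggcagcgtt
DNMT1: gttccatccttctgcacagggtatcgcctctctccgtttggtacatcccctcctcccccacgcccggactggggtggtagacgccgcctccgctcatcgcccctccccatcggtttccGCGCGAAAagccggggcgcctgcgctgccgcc
HELLS: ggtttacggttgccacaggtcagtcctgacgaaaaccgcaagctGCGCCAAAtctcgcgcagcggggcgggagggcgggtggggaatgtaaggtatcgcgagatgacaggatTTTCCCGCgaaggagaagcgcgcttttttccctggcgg
CBX3: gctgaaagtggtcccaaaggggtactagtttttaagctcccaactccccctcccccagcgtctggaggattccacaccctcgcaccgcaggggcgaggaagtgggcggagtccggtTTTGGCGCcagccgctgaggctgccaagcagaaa
DNMT3B: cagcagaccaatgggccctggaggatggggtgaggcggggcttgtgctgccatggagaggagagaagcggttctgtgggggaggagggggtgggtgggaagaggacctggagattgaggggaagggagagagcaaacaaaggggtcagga
The match began 14 bases before the start in UHRF1, 2 bases before it in DNMT1, 4 before it in CBX3, and 76 and 8 bases before it in HELLS. UHRF1 had 3 windows, of which the first is printed, and another held none of these words. The DNMT3B stretch held none of these words. A match is a description of letters and no evidence of a bound factor. The cell cycle word TTTGAA occurred in 15.2% of all windows and 8.16% of member windows (DNMT3A, PPHLN1, SUV39H2 and TET2). The interferon response word (GAAA, 2 bases of any kind, GAAA) occurred in 3.57% of all windows and 6.12% of member windows (BST2 and CBX5). Both were searched on both strands, and none of the words searched is contained in another.

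Removal of DNA methylation starts with TET enzymes, which oxidise methylcytosine. TET3 stood at 46.6 and 46.1 CPM with the TARDBP hairpin, 134 and 122 CPM with control hairpin 1, and 80.2 and 78.5 CPM with control hairpin 2. The knockdown was lowest and control hairpin 1 highest, the reverse of the order of the controls in UHRF1. TET3 fell 2.17-fold against the mean of both controls (log2 fold change -1.12, SE 0.0806, adjusted p = 2.68e-05, edgeR). It fell by 1.46 on the log2 scale against control hairpin 1 and by 0.78 against control hairpin 2 (adjusted p = 1.60e-05 and 2.49e-04). TET1 and TET2 were not called in any of the 4 comparisons. Against the mean of both controls the log2 fold change was -0.13 for TET1 (95% interval -0.39 to 0.13, adjusted p = 0.372) and -0.13 for TET2 (-0.31 to 0.04, adjusted p = 0.182). TET2 passed against control hairpin 1 with relative log expression scaling (adjusted p = 0.0430), and between the controls with upper-quartile scaling (adjusted p = 0.0371).

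**Figure D3:**
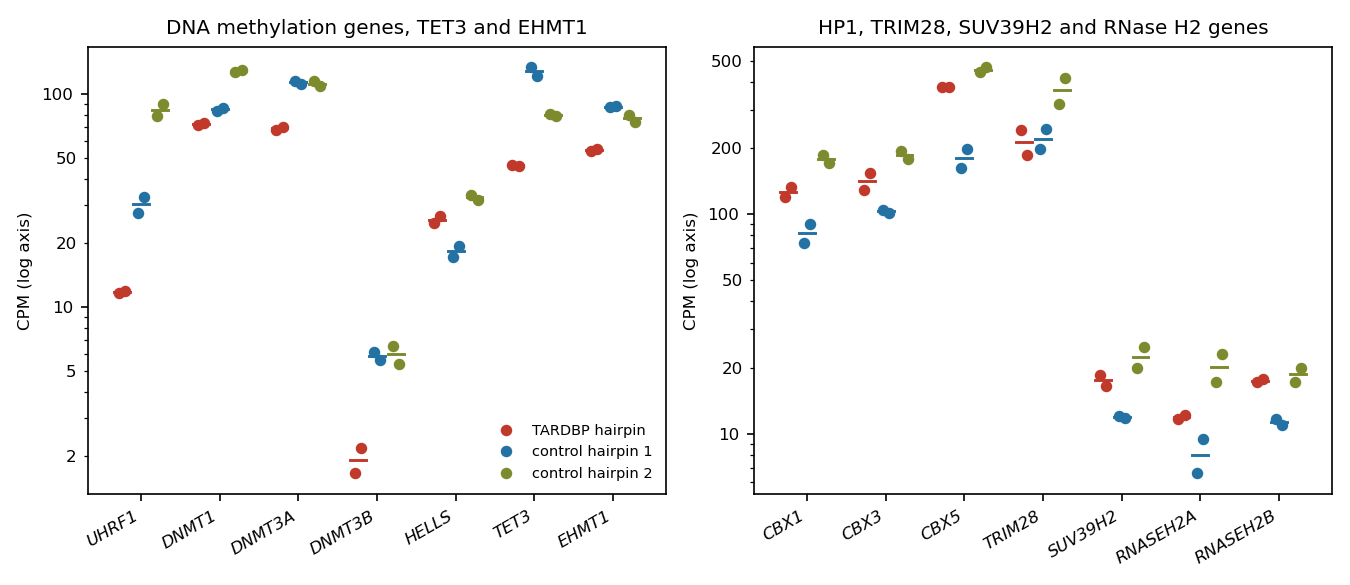
CPM (log axis) of 14 members in each library, DNA methylation genes with TET3 and EHMT1 at left and HP1, TRIM28, SUV39H2 and RNase H2 genes at right; points are libraries and bars the mean of the 2 libraries. UHRF1, DNMT3B, DNMT3A, TET3 and EHMT1 have the knockdown libraries lowest, and the HP1 genes have them between the controls.

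The writers of histone H3 lysine 9 methylation moved gene by gene. EHMT1 (GLP), which makes the dimethyl mark together with EHMT2 (G9a), stood at 54.1 and 55.3 CPM with the TARDBP hairpin, 86.6 and 87.9 CPM with control hairpin 1, and 79.8 and 74.1 CPM with control hairpin 2. Both knockdown libraries lay below all controls. EHMT1 fell 1.50-fold (log2 fold change -0.58, SE 0.0770, adjusted p = 4.88e-04, edgeR), by 0.67 against control hairpin 1 and by 0.49 against control hairpin 2. EHMT2 was level: all 6 libraries lay between 81.7 and 90.5 CPM, and its log2 fold change was 0.02 (95% interval -0.16 to 0.20, adjusted p = 0.839).

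SUV39H1 and SUV39H2, which write the trimethyl mark of pericentric heterochromatin, were both higher with control hairpin 2 than with control hairpin 1. SUV39H1 stood at 4.24 and 3.84 CPM with the TARDBP hairpin, 4.08 and 4.46 CPM with control hairpin 1, and 8.37 and 8.90 CPM with control hairpin 2. The knockdown overlapped control hairpin 1 and lay below control hairpin 2. SUV39H1 fell against control hairpin 2 (log2 fold change -1.09, adjusted p = 9.39e-04) and was not called against control hairpin 1 (-0.08, adjusted p = 0.744). Its call against the mean of both (-0.59, adjusted p = 0.0118) was lost without TARDBP hairpin replicate 2 (adjusted p = 0.0753). SUV39H2 rose against control hairpin 1 (0.56, adjusted p = 0.0143), a call lost without TARDBP hairpin replicate 1 or either control hairpin 1 library (0.0593 to 0.0759), and stood at -0.35 against control hairpin 2 (adjusted p = 0.0636), which passed without control hairpin 2 replicate 1 (0.0350).

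TRIM28, the corepressor that brings SETDB1 to zinc finger proteins, stood at 242 and 186 CPM with the TARDBP hairpin, 198 and 245 CPM with control hairpin 1, and 319 and 419 CPM with control hairpin 2. The knockdown overlapped control hairpin 1 and lay below control hairpin 2. TRIM28 fell against control hairpin 2 (log2 fold change -0.79, SE 0.174, adjusted p = 0.00605, edgeR) and not against control hairpin 1 (-0.05, 95% interval -0.45 to 0.34). Its call against the mean of both (-0.42, adjusted p = 0.0496) was lost without TARDBP hairpin replicate 2, control hairpin 1 replicate 2 or control hairpin 2 replicate 2 (adjusted p 0.0917 to 0.325), and with upper-quartile scaling (0.130), genes alone (0.0671) or no filter on low counts (0.0503). SETDB1 stood at 77.3 and 83.5 CPM with the TARDBP hairpin, 112.4 and 90.5 CPM with control hairpin 1, and 67.6 and 63.6 CPM with control hairpin 2. SETDB1 therefore ordered the controls the other way round from TRIM28. The fall of SETDB1 against control hairpin 1 (-0.33, adjusted p = 0.0469) was called only with all libraries or without control hairpin 1 replicate 2, and lost without each of the other 5 libraries (0.0514 to 0.289), with upper-quartile scaling (0.139) and with genes alone (0.0546). Its difference of 0.29 against control hairpin 2 (adjusted p = 0.0662) passed with upper-quartile scaling (0.0141), with genes alone (0.0436) and without either control hairpin 1 library (0.0390 and 0.0386).

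The HP1 proteins, readers of the mark, are encoded by CBX1, CBX3 and CBX5. All 3 were lowest with control hairpin 1 and highest with control hairpin 2, by 1.12, 0.85 and 1.34 on the log2 scale between the controls (adjusted p = 2.43e-04, 5.50e-04 and 8.03e-05, edgeR). CBX1 stood at 119.6 and 134 CPM with the TARDBP hairpin, 74.2 and 90.6 CPM with control hairpin 1, and 187 and 172 CPM with control hairpin 2. The knockdown lay between them, 0.62 above control hairpin 1 (adjusted p = 0.00325) and 0.50 below control hairpin 2 (log2 fold change -0.50, adjusted p = 0.00758). Both CBX1 calls held without any 1 library. CBX3 stood at 129 and 154 CPM with the TARDBP hairpin, 105 and 102 CPM with control hairpin 1, and 195 and 178 CPM with control hairpin 2. CBX3 rose against control hairpin 1 (0.46, adjusted p = 0.00908) and fell against control hairpin 2 (-0.40, adjusted p = 0.0143). The first CBX3 call was lost without TARDBP hairpin replicate 2 or control hairpin 1 replicate 2 (0.0528 to 0.0704). The second was lost without TARDBP hairpin replicate 1 or control hairpin 2 replicate 1 (0.0835 to 0.0944), and with upper-quartile scaling (0.0781). CBX5 stood at 380.1 and 382 CPM with the TARDBP hairpin, 162 and 199 CPM with control hairpin 1, and 446 and 468 CPM with control hairpin 2. The groups did not overlap. CBX5 rose 2.11-fold against control hairpin 1 (log2 fold change 1.08, SE 0.109, adjusted p = 1.42e-04) and was not called against control hairpin 2 (-0.26, adjusted p = 0.0725), where it passed without either control hairpin 1 library (0.0352 and 0.0341). These genes have near-identical copies elsewhere in the genome, and how reads with several matches were counted is not known here, so their levels are uncertain.

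The HUSH complex, which spreads the lysine 9 mark over young elements, showed no call with the TARDBP hairpin for any of its 3 genes in this set. Against the mean of both controls, MPHOSPH8 (MPP8), the subunit that binds the mark, differed by 0.18 in log2 (95% interval -0.13 to 0.49, adjusted p = 0.292). PPHLN1 (periphilin) differed by 0.18 (-0.04 to 0.41, adjusted p = 0.161). MORC2, an ATPase that works with HUSH, differed by -0.07 (-0.30 to 0.16, adjusted p = 0.580). PPHLN1 passed against the mean with upper-quartile scaling (adjusted p = 0.0287), as MPHOSPH8 did against control hairpin 2 (0.0338); the latter also passed without TARDBP hairpin replicate 1 (0.0490). FAM208A, which encodes the HUSH scaffold TASOR and was counted among the other silencing genes, stood at 157 and 164 CPM with the TARDBP hairpin, 118 and 118 CPM with control hairpin 1, and 117 and 112 CPM with control hairpin 2. Both knockdown libraries lay above all controls, and FAM208A rose by 0.47 in log2 (SE 0.0700, adjusted p = 9.15e-04, edgeR).

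ATRX and DAXX deposit histone H3.3 at repeats and telomeres. ATRX stood at 304 and 332 CPM with the TARDBP hairpin, 329 and 303 CPM with control hairpin 1, and 249.7 and 193 CPM with control hairpin 2. It was higher only than control hairpin 2 (log2 fold change 0.52, adjusted p = 0.00961), a call lost without TARDBP hairpin replicate 2 or control hairpin 2 replicate 2 (0.0593 to 0.0824). ATRX also passed against the mean of both with upper-quartile scaling (adjusted p = 0.0185) or without control hairpin 2 replicate 1 (0.0163), where the value was 0.27 (adjusted p = 0.0733) otherwise. DAXX differed by 0.01 (95% interval -0.21 to 0.22, adjusted p = 0.948). KDM1A (LSD1), a histone demethylase with a part in silencing endogenous retroviruses, fell against control hairpin 2 (-0.68, adjusted p = 0.00105) and differed by 0.01 from control hairpin 1. Its call against the mean of both (-0.34, adjusted p = 0.0160) was lost without either knockdown library (0.0572 to 0.0979) and with upper-quartile scaling (0.0768). SIRT6, a deacylase that acts at L1 promoters, was not called with the TARDBP hairpin (-0.10 against the mean of both, adjusted p = 0.537).

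Of the APOBEC3 cytidine deaminases, which edit and block the copying of retroelements, the 2 that could be tested rose. APOBEC3C stood at 6.36 and 5.30 CPM with the TARDBP hairpin, 3.01 and 3.28 CPM with control hairpin 1, and 3.63 and 3.86 CPM with control hairpin 2. Both knockdown libraries lay above all controls. APOBEC3C rose 1.696-fold against the mean of both controls (log2 fold change 0.76, SE 0.159, adjusted p = 0.00472, edgeR). The log2 rise was 0.89 over control hairpin 1 (adjusted p = 0.00588) and 0.64 over control hairpin 2 (adjusted p = 0.0208). The last call was lost without TARDBP hairpin replicate 1 or either control hairpin 2 library (0.0925 to 0.107), and with DESeq2 (0.0768). APOBEC3F stood at 4.14 and 3.895 CPM with the TARDBP hairpin, 2.96 and 2.40 CPM with control hairpin 1, and 1.21 and 2.03 CPM with control hairpin 2. Its knockdown libraries also lay above all controls. These were the only members with that arrangement (5.88% of those tested, beside 23.3% of all features). APOBEC3F rose by 0.94 against the mean of both (adjusted p = 0.00887). The rise was 1.30 over control hairpin 2 (adjusted p = 0.00500), and it differed by 0.59 from control hairpin 1 (adjusted p = 0.09997). APOBEC3B was listed at 0 in all 6 libraries, and APOBEC3G had 1 count in TARDBP hairpin replicate 2 and 0 elsewhere. A count of 0 allows up to 3 counts, or 0.141 to 0.158 CPM by library, for counting error only. The APOBEC3 genes are close paralogs, and the treatment of reads shared between them is not known here.

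The other restriction factors moved in different directions. MOV10, an RNA helicase that binds L1 RNA, stood at 65.9 and 70.9 CPM with the TARDBP hairpin, 73.7 and 62.9 CPM with control hairpin 1, and 41.3 and 48.3 CPM with control hairpin 2. The knockdown overlapped control hairpin 1 and lay above control hairpin 2 (log2 fold change 0.61, adjusted p = 0.00337, edgeR). Its call against the mean of both (0.31, adjusted p = 0.0346) was lost without 4 of the 6 libraries in turn: either knockdown library, control hairpin 1 replicate 2 or control hairpin 2 replicate 1 (0.0731 to 0.193). It was also lost with DESeq2 (0.0586) and with no filter on low counts (0.0601). ZC3HAV1, which encodes the CpG-sensing antiviral protein ZAP, stood at 84.7 and 79.3 CPM with the TARDBP hairpin, 53.2 and 61.3 CPM with control hairpin 1, and 76.3 and 81.0 CPM with control hairpin 2. It did the reverse of MOV10: it rose against control hairpin 1 (0.52, adjusted p = 0.00382) and overlapped control hairpin 2 (0.06, adjusted p = 0.643). The ZC3HAV1 call against the mean of both (0.29, adjusted p = 0.0233) was lost without every library but control hairpin 1 replicate 2 (0.0598 to 0.148).

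SAMHD1, which depletes the nucleotides needed for reverse transcription, stood at 10.9 and 9.97 CPM with the TARDBP hairpin, 13.9 and 14.7 CPM with control hairpin 1, and 13.7 and 12.7 CPM with control hairpin 2. Both knockdown libraries lay below all controls. SAMHD1 fell by 0.39 on the log2 scale against the mean of both (adjusted p = 0.0216, edgeR), a call lost without TARDBP hairpin replicate 2 or control hairpin 2 replicate 1 (0.0547 to 0.130) and with upper-quartile scaling (0.0817). The call against control hairpin 1 (-0.45, adjusted p = 0.0230) was lost without TARDBP hairpin replicate 2 or either control hairpin 1 library (0.0571 to 0.106), and with upper-quartile scaling (0.0597). BST2 (tetherin), which holds budding virus at the cell surface, had 14 and 14 counts in the knockdown libraries, 15 and 31 counts with control hairpin 1, and 27 and 30 counts with control hairpin 2. The knockdown libraries were lowest but the 95% interval of the log2 fold change was wide, -1.61 to -0.01 (adjusted p = 0.0880). BST2 passed without control hairpin 1 replicate 1 (adjusted p = 0.0330). SAMHD1 and BST2 were among 8 members with both knockdown libraries below all 4 controls (23.5% of those tested, beside 22.8% of all features), with DNMT1 and the 5 lower than each control.

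The genes that clear nucleic acids differed mainly between the controls. RNASEH2A, RNASEH2B and RNASEH2C encode the subunits of RNase H2, which cuts RNA paired with DNA. All 3 were higher with control hairpin 2 than with control hairpin 1, by 1.33, 0.73 and 0.66 in log2 (adjusted p = 0.00137, 0.00284 and 0.00382, edgeR). RNASEH2A, the catalytic subunit, stood at 11.6 and 12.2 CPM with the TARDBP hairpin, 6.58 and 9.40 CPM with control hairpin 1, and 17.2 and 23.1 CPM with control hairpin 2. The knockdown lay between the controls. RNASEH2A fell against control hairpin 2 (-0.76, adjusted p = 0.0130), a call lost without TARDBP hairpin replicate 1 or control hairpin 2 replicate 2 (0.0534 to 0.0870). Its difference of 0.58 from control hairpin 1 (adjusted p = 0.0542) passed with upper-quartile scaling (0.0265), with genes alone (0.0442), and without control hairpin 1 replicate 2 (0.0274) or control hairpin 2 replicate 1 (0.0477). RNASEH2B rose against control hairpin 1 (0.63, adjusted p = 0.00516) and, with upper-quartile scaling only, against the mean of both (adjusted p = 0.0161). RNASEH2C fell against control hairpin 2 (-0.34, adjusted p = 0.0475), a call that was lost without any 1 of the 6 libraries (0.0506 to 0.221). It was also lost with upper-quartile scaling (-0.20, adjusted p = 0.202), genes alone (0.0734), DESeq2 (0.0676) and no filter on low counts (0.0621). Its difference of 0.32 from control hairpin 1 (adjusted p = 0.0761) passed with upper-quartile scaling (0.0249). TREX1, an exonuclease that degrades cytosolic DNA, was called in no comparison (-0.26 against the mean of both, 95% interval -0.61 to 0.09, adjusted p = 0.190); it overlaps another gene, and reads of overlapping genes cannot be separated here.

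Beyond the 36 members, a list of 36 symbols of silencing genes had 33 in the files and 32 tested. Some symbols were second names of the same gene, such as TASOR for FAM208A. Against the mean of both controls 9 of the 32 rose and 10 fell (median log2 fold change 0.01). Over all features 23.9% were higher and 24.3% lower. Those that fell with the lowest p included CHAF1A, a subunit of the chromatin assembly factor CAF-1, from 16.5, 13.2, 33.2 and 33.7 CPM in the 4 controls to 6.83 and 5.45 CPM with the TARDBP hairpin (log2 fold change -1.86, SE 0.149, adjusted p = 4.29e-05, edgeR). As with UHRF1, control hairpin 2 was the highest group. SUMO2, a modifier that TRIM28 carries and uses, fell by 0.60, EZH2, the methyltransferase of the Polycomb mark, by 0.74, and ATF7IP, the stabilising partner of SETDB1, by 0.46. Those that rose with the lowest p were ZBTB38, a reader of methylated DNA (0.65), FAM208A (0.47), and EED and SUZ12, the partners of EZH2 (0.58 and 0.41). Against each control EZH2 fell and EED rose. SUZ12 rose against control hairpin 2 and was not called against control hairpin 1 (0.08, adjusted p = 0.536, edgeR). Against control hairpin 1, 5 rose (FAM208A, CHD3, ZBTB38, EED and RIF1) and 7 fell, beside 21.1% of all features higher and 21.8% lower. Against control hairpin 2, 9 rose and 8 fell, beside 24.0% and 26.2% of all features. Between the controls, 8 were higher and 13 lower with control hairpin 2, beside 22.8% and 20.4% of all features.

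A list of other restriction genes had 29 symbols in the files and 19 tested. Against the mean of both controls 5 of the 19 rose and 4 fell (median 0.06), beside 23.9% of all features higher and 24.3% lower. The PIWI gene PIWIL2, whose family guards the germ line against transposons, had 17 and 24 counts in the knockdown libraries. It had 4 to 6 in each control library, and rose by 2.14 in log2 (adjusted p = 0.00195, edgeR). Below the minimum count of 10 in every control library, PIWIL2 passed the filter only through the knockdown libraries. Its p-values are therefore no support for a rise. The other 4 that rose were PIWIL4 (1.27), SLFN5 (1.09), SAMD9L (0.65) and SAMD9 (0.46). ZCCHC3, a nucleic acid sensor cofactor, fell from 37.8, 39.1, 40.4 and 42.4 CPM in the controls to 17.8 and 16.9 CPM (-1.20, SE 0.0921, adjusted p = 3.44e-05, edgeR). TRIM25, the E3 ligase that assists ZAP, fell by 0.77, UPF1, the helicase of nonsense-mediated decay, by 0.68, and DICER1, the nuclease of small RNA biogenesis, by 0.48. Against control hairpin 1, TRIM5, SLFN5, ERCC1, PIWIL2 and PIWIL4 rose and TRIM25, ZCCHC3 and UPF1 fell. Against control hairpin 2, SAMD9, SAMD9L and PIWIL2 rose and TRIM25, ZCCHC3, UPF1, DICER1 and IFITM3 fell. Between the controls 5 were higher and 2 lower with control hairpin 2 (TRIM5, DICER1, IFITM2, IFITM3 and ERCC1 higher, SAMD9 and SAMD9L lower).

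Several of these genes are used most in dividing cells, and a list of 26 proliferation genes was measured beside them. Against the mean of both controls 24 of the 26 fell and 1 rose (TYMS), with a median log2 fold change of -2.22. Over all features 24.3% were lower and 23.9% higher. Against control hairpin 1, 20 fell and 2 rose (median -1.22), against control hairpin 2, 25 fell and 1 rose (median -3.08), and between the controls 25 were higher with control hairpin 2 (median 1.83). The summed level was 358.7 and 382.6 CPM with the TARDBP hairpin, 490.2 and 611.1 CPM with control hairpin 1, and 1538.7 and 1741 CPM with control hairpin 2. UHRF1, DNMT1 and CHAF1A libraries lay in that same order of hairpins with no overlap. HELLS, SUV39H1, SUV39H2 and RNASEH2A, also known to follow S phase, shared part of that order. All were highest with control hairpin 2, by 0.84, 1.02, 0.91 and 1.33 in log2 over control hairpin 1. The knockdown stood at -0.35, -1.09, -0.35 and -0.76 against control hairpin 2, with SUV39H2 not called. For HELLS, SUV39H2 and RNASEH2A the knockdown lay between the controls, 0.49, 0.56 and 0.58 in log2 above control hairpin 1. That RNASEH2A difference was not called, and the HELLS and SUV39H2 calls were lost without some single libraries. For SUV39H1 the knockdown overlapped control hairpin 1. EHMT1 and TET3 were highest with control hairpin 1, and the controls overlapped for DNMT3A and DNMT3B. In bulk RNA, fewer dividing cells and less RNA per cell cannot be told apart, and the part of proliferation in the members' changes was not tested.

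A list of 26 interferon-induced genes had 19 tested. Against the mean of both controls, 6 rose (IFI44, IFIT1, MX1, DDX58 and RSAD2 among them) and 4 fell (OAS1, OAS3, USP18 and TAP1). The median was 0.13, and over all features 23.9% were higher and 24.3% lower. The summed level of the interferon list was 219.9 and 226.9 CPM with the TARDBP hairpin, 191.7 and 186 CPM with control hairpin 1, and 214.3 and 217.1 CPM with control hairpin 2. Fibroblast markers (5 genes) summed to 45.6 and 55.1 CPM in the knockdown libraries and to 82.9 and 104.4 CPM with control hairpin 1. With control hairpin 2 the sum was 158 and 192.2 CPM. All 5 were higher with control hairpin 2 than with control hairpin 1, beside 22.8% of all features. Against the mean of both controls 4 fell and 1 rose, beside 24.3% and 23.9% of all features. Astrocyte markers summed to 0.9 to 3.1 CPM, immune markers to 6.4 to 19.7 CPM with AIF1, CD3E and MS4A1 at 0 in all libraries, and endothelial markers to 0.1 to 0.9 CPM with CDH5 at 0. The part of these cell type markers in the members' changes was not tested.

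The elements that these genes act on were counted in the same libraries, by subfamily. The shares over all features given beside them rest mostly on genes, 16202 of the 17163 tested. Against the mean of both controls 4102 features were higher and 4167 lower, of which 3695 and 4165 were genes. Between the controls 3920 were higher and 3498 lower with control hairpin 2, of which 3912 and 3161 were genes. Calls on repeat families as a whole thus went almost only 1 way in each. That direction was not particular to L1 or the retroviruses. Against the mean of both controls, 60 of 121 tested L1 subfamilies rose and 0 fell, beside 23.9% of all features higher and 24.3% lower. Against control hairpin 1 only 8 rose, a share below the 21.1% of all features. Between the controls, 97 were lower with control hairpin 2 than with control hairpin 1, beside 20.4% of all features. L1HS, the youngest human L1, stood at 114 and 121 CPM with the TARDBP hairpin, 129.99 and 128 CPM with control hairpin 1, and 97.8 and 96.2 CPM with control hairpin 2. It lay between the controls and was called only against control hairpin 2 (log2 fold change 0.27, adjusted p = 0.0236, edgeR), not against the mean of both (0.07, adjusted p = 0.451). Of 41 Alu subfamilies 4 rose against the mean of both, and of 6 SVA subfamilies 0 were called. SVA_E rose against control hairpin 1 (0.48, adjusted p = 0.0456).

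Among endogenous retroviruses, more subfamilies rose than fell against each control. In the ERV1 group 150 of 251 subfamilies rose and 1 fell against the mean of both, with 81 and 164 higher than control hairpins 1 and 2. The numbers that rose against the mean were 52 of 102 for ERVL, 41 of 78 for ERVL-MaLR and 23 of 37 for ERVK, and 0 of these fell. They were fewer against control hairpin 1, at 21 for ERVL, 11 for ERVL-MaLR (with 1 that fell) and 5 for ERVK. Against control hairpin 2 they were 65, 62 and 27. Over all features, 23.9% were higher against the mean, 21.1% against control hairpin 1 and 24.0% against control hairpin 2. The shares of ERVL, ERVL-MaLR and ERVK that rose against control hairpin 1 were below that of all features. Between the controls, 20 ERVL, 34 ERVL-MaLR, 17 ERVK and 56 ERV1 subfamilies were lower with control hairpin 2, so the number that rose depended on the control. HERVK-int stood at 70.4 and 90.9 CPM with the TARDBP hairpin, 50.4 and 47.7 CPM with control hairpin 1, and 34.6 and 29.3 CPM with control hairpin 2. The knockdown lay above all controls, and HERVK-int rose by 1.03 in log2 (SE 0.117, adjusted p = 2.24e-04, edgeR), by 0.72 against control hairpin 1 and by 1.34 against control hairpin 2. HERVH-int rose by 0.40 (adjusted p = 0.00449). The summed ERVK level varied within each hairpin, at 9330 and 4616 CPM with the TARDBP hairpin, 3064 and 5573 CPM with control hairpin 1, and 5149 and 9727 CPM with control hairpin 2. Whether the members' changes bear on those of the elements was not tested.

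**Figure D4:**
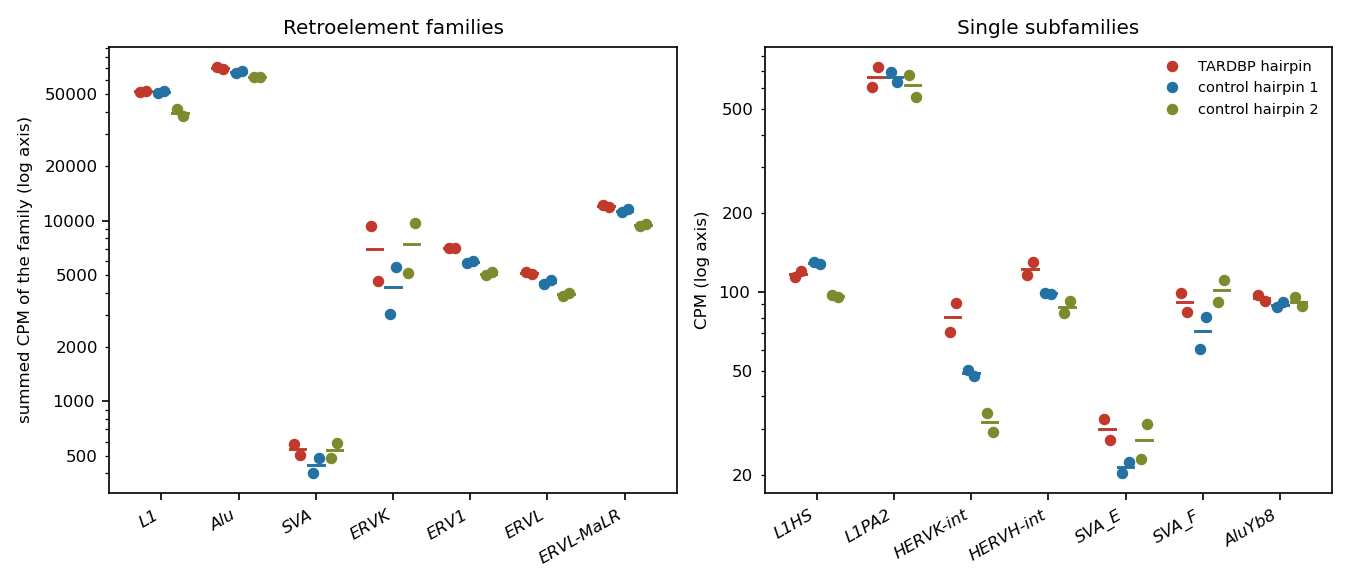
CPM (log axes) of retroelements in each library, families as the sum over their subfamilies at left and single subfamilies at right; points are libraries and bars the mean of the 2 libraries. HERVK-int and HERVH-int have both knockdown libraries above all controls, while L1HS has them between the controls.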

How the data were processed

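RNA-seq was made from 6 libraries of SH-SY5Y cells, ribosomal RNA removed and the kit strand-specific, per the labels' protocols. The authors' tools were bcl2fastq and STAR 2.5.2b, with build hg19, per the submitters' processing notes, and the deposited values were raw whole-number counts per gene symbol and per repeat subfamily, per the file headers. The counter, annotation, strand setting and handling of multiply mapped reads were not given in the sources used here, so counts of paralogs, pseudogene families and overlapping or antisense genes are uncertain. Of 28953 genes and repeat families, 5025 had no count and 17163 (16202 genes, 961 families) passed filterByExpr (minimum count 10, minimum total 15). Counts were scaled by TMM and fitted in edgeR 4.0.16 (R 4.3.3) with 1 quasi-likelihood model of 3 groups over 6 libraries (3 residual degrees of freedom, biological coefficient of variation 10.5%). The Benjamini-Hochberg adjustment covered all 17163, and a call was an adjusted p below 0.05. The SE is the size of the log2 fold change divided by the square root of the F statistic, and intervals are at 95%. DESeq2 1.42.0 and other settings were alternatives. Replicates differed beyond sampling noise (chi-square per degree of freedom 18.0 to 20.8), with log2 CPM correlations of 0.989 to 0.990 across genes and families. Members called in 1 direction against each control or in opposite directions, and TARDBP, were given by library; of other pathway genes, up to 4 in each direction with the lowest p were named. Values of further members by library were added after the data were seen. A gene of the interferon list is not reported here by name. The members and lists were chosen with earlier results of these data known. No genome coordinates of the counted genes are given, and promoters come from RefSeq (GRCh38.p14).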

Additional observations from a re-analysis of the deposited data

How the results depend on the processing

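Over 14 other settings, 1802 values of the 34 members were recomputed; 1623 kept their direction and side of the threshold (a value called in neither counted as kept), 152 lost their call, 27 gained one and 0 reversed a call. Tested against a 1.5-fold change, the members higher and lower were 0 and 3 against the mean of both controls, 1 and 3 against control hairpin 1, 1 and 5 against control hairpin 2, and 6 and 0 between the controls. With the control libraries pooled as 1 group, 1 was higher and 5 lower than the controls, and with upper-quartile scaling 8 were higher. Leaving out 1 library at a time gave 3 to 4 higher and 6 to 11 lower against the mean, 6 to 9 and 5 to 6 against control hairpin 1, 2 to 5 and 10 to 15 against control hairpin 2, and 12 to 15 and 3 to 5 between the controls. DNMT3A, DNMT3B, UHRF1, EHMT1 and TET3 stayed lower than each control under every left-out library and every setting that compares the controls singly, except the 1.5-fold test, which kept DNMT3B, UHRF1 and TET3. With the replicate number as a block, 4 members were higher and 9 lower against the mean, 9 and 6 against control hairpin 1, 4 and 14 against control hairpin 2, and 14 and 4 between the controls. TRIM28 (adjusted p = 0.0757) and MOV10 (0.0562) then lost their calls against the mean and SETDB1 (0.0659) its call against control hairpin 1, while RNASEH2A passed against control hairpin 1 (0.0250), which made 4 members called in opposite directions. Libraries of the same number deviated in opposite senses between the TARDBP hairpin and each control (correlations -0.23 and -0.25) and together between the 2 controls (0.23); as only 1 of the 3 pairs of groups passed 0.1, the numbers were not taken as a pairing. Depth limits the rarest members: BST2 rests on 14 to 31 counts a library. Causes were not tested.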
